A study of Arabidopsis thaliana with 24 samples.

Results

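The young Arabidopsis miRNAs numbered from 770 to 870 were taken by number, leaving out miR822, miR824, miR825, miR827, miR828, miR839, miR842, miR846, miR857, and miR869. The rule gave 82 mature sequences of 50 families among the 350 known miRNAs listed in each deposited table, and used no measured value. Small RNA was sequenced from whole seedlings, 2 weeks old, in 24 libraries of 8 groups with 3 biological replicates each. WT seedlings were of the Columbia ecotype (Col-0), and abi1td, mkkk17, and mkkk18 were T-DNA insertion lines for the phosphatase ABI1 and the kinases MAPKKK17 and MAPKKK18, which act in abscisic acid (ABA) signaling. Each genotype was treated for 4 h with 100 µM ABA, in methanol, or with the matching mock solution. One line was used per mutant, and the labels could not be checked against the disrupted genes, since small RNA tables hold no mRNA. Values were RPM, reads scaled to a fixed library total. Since whole seedlings were sampled, fewer cells of a type and less miRNA per cell cannot be told apart.

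Plant miRNAs are cut by DICER-LIKE1 from a stem-loop transcript and loaded into ARGONAUTE1, which cleaves or represses mRNAs that pair closely with the miRNA. Deeply conserved families mostly control developmental regulators and nutrient responses. Young miRNAs arose recently from inverted duplications or other fold-back loci, are usually weakly expressed, and often have a single locus and few or no known targets.

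The following sequences are those of the 11 members called for ABA in WT Col-0 (limma, adjusted p-value under 0.05) and of miR829-5p, called between genotypes. Most of these calls were lost with the GC correction described below. The sequences of the miR858 pair, the most abundant members, are given as well. Each sequence is written 5′ to 3′ as DNA letters from the deposited tables, with the seed (bases 2 to 8) in capitals.
miR779.2: tGATTGGAaatttcgttgact
miR781a/miR781b: tTAGAGTTttctggatactta
miR860: tCAATAGAttggactatgtat
miR844-3p: tTATAAGCcatcttactagtt
miR775: tTCGATGTctagcagtgcca
miR841a-5p: tACGAGCCacttgaaactgaa
miR838: tTTTCTTCtacttcttgcaca
miR861-3p: gATGGATAtgtcttcaaggac
miR823: tGGGTGGTgatcatataagat
miR777: tACGCATTgagtttcgttgctt
miR847: tCACTCCTcttcttcttgatg
miR829-5p: aCTTTGAAgctttgatttgaa
miR858a: tTTCGTTGtctgttcgacctt
miR858b: tTCGTTGTctgttcgaccttg

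No seed was shared among these 14 sequences. Across all 82 members a seed was shared within only 2 pairs, miR841a-5p with miR841b-5p and miR833a-5p with miR833b. In length, 62 members had 21 nt, 15 had 22 nt, 3 had 20 nt, and 2 had 24 nt. T was the first base in 59 members, A in 14, C in 6, and G in 3. The median GC content was 38.1%, against 42.9% over all 350 entries and 50% over the 91 entries of conserved families. The lowest GC content among the 14 printed sequences was 28.6%, in miR781a/miR781b, miR860, miR844-3p, and miR829-5p, and the highest was 50%, in miR775.

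Sequences were placed on the TAIR10.1 assembly with RefSeq annotation by exact match, and 75 of the 82 matched at a single position. miR779.2 lay in MIR779 at chr2:9560866-9560886 on the plus strand, and miR775 in MIR775 at chr1:29422546-29422565 on the plus strand, neither inside another annotated gene. miR844-3p lay in MIR844 at chr2:9942202-9942222 on the minus strand, within an intron of AT2G23348. Several hairpins lay in genes on the same strand, where fragments of the host transcript could not be told apart from the miRNA. miR838, at chr1:28635-28655, lay in an intron of DCL1, the gene of DICER-LIKE1 itself. miR860, at chr5:9098876-9098896, overlapped an exon of FC1, a ferrochelatase gene, and miR777, at chr1:26638083-26638104, an exon of AT1G70650. The sequence shared by miR781a and miR781b occurred at 2 positions within an intron of AT1G21200, at chr1:7423523-7423543 on the plus strand and chr1:7423585-7423605 on the minus strand. miR858a was read from chr1:26773695-26773715 on the minus strand. The miR858b sequence occurred both in MIR858b, at chr1:26772907-26772927, and, shifted by 1 base from miR858a, in MIR858a at chr1:26773694-26773714, so the division of reads between these names is uncertain.

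Most members were rare. Over the 24 libraries, 21 members had a mean of at least 1 RPM, 43 were above 0 in at least 1 library but under that mean, and 18 were listed at 0 throughout. The share with a mean of at least 1 RPM was 25.6%, against 36.9% of all 350 entries and 81.3% of the conserved entries. The median of the mean RPM was 0.148 for the members, 0.227 for all entries, and 10.5 for the conserved entries. The 18 members listed at 0 in every library are close in share to the 21.1% of all entries and above the 3.30% of conserved entries.

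In WT Col-0, 49 members were above 0 in at least 2 of the 6 libraries, and the same count was found in abi1td and in mkkk17, with 53 in mkkk18. These are 59.8% of the members in the first 3 genotypes and 64.6% in mkkk18, beside 62.3%, 63.1%, 63.4%, and 64.9% of all 350 entries in WT Col-0, abi1td, mkkk17, and mkkk18. By this rule 46 members were detected in all 4 genotypes. Most detected members were thus shared by the genotypes, and 17 members were above 0 in all 24 libraries. Values near 0 are coarse, since RPM were rounded to 1 decimal and 1 read was worth from 0.117 to 0.180 RPM in the 10 libraries where the value of a read could be read from the steps between low values. All 10 were ABA libraries, with about 5542810 to 8573980 reads, and 3 reads in them were worth 0.350 to 0.541 RPM. In the other 14 libraries, the 12 mock libraries among them, a read was worth at most 0.109 RPM. A member listed at 0 may thus be present below about 3 reads, and this floor covers counting error only.

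The number of members above 0 was lower in WT Col-0 ABA libraries (38, 30, and 26) than in WT Col-0 mock libraries (43, 47, and 44), and the groups did not overlap. Over all 350 entries, the number above 0 was likewise lower in every WT Col-0 ABA library than in every WT Col-0 mock library. This drop in detection was thus not limited to the members. At 0.6 RPM or more, which lies above 3 reads in every library, the member counts were 16, 19, and 14 in the ABA libraries and 24, 28, and 29 in the mock libraries. The count at 0.6 RPM was not made over all entries. In WT Col-0 ABA replicate 1, where the value of a read was not resolved and was at most 0.104 RPM, both member counts also lay below the mock libraries. Outside WT Col-0 the libraries overlapped, but 3 had the fewest members at 0.6 RPM or more of their genotype: abi1td ABA replicate 2 with 17, mkkk17 mock replicate 1 with 15, and mkkk18 ABA replicate 1 with 21. These same 3 libraries and the 3 WT Col-0 ABA libraries had another feature in common. The straight-line slope of log2 level on GC content, over the 129 entries with a mean of at least 1 RPM, was 0.51, 0.76, and 0.84 log2 units per 10 GC points in the WT Col-0 ABA libraries, 0.64 in abi1td ABA replicate 2, 0.36 in mkkk18 ABA replicate 1, and 0.16 in mkkk17 mock replicate 1. In the remaining 18 libraries it lay between -0.27 and 0.03. In these 6 libraries AT-rich sequences were thus low and GC-rich sequences high, and in WT Col-0 this slope and the ABA treatment cannot be told apart.

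**Figure D1:**
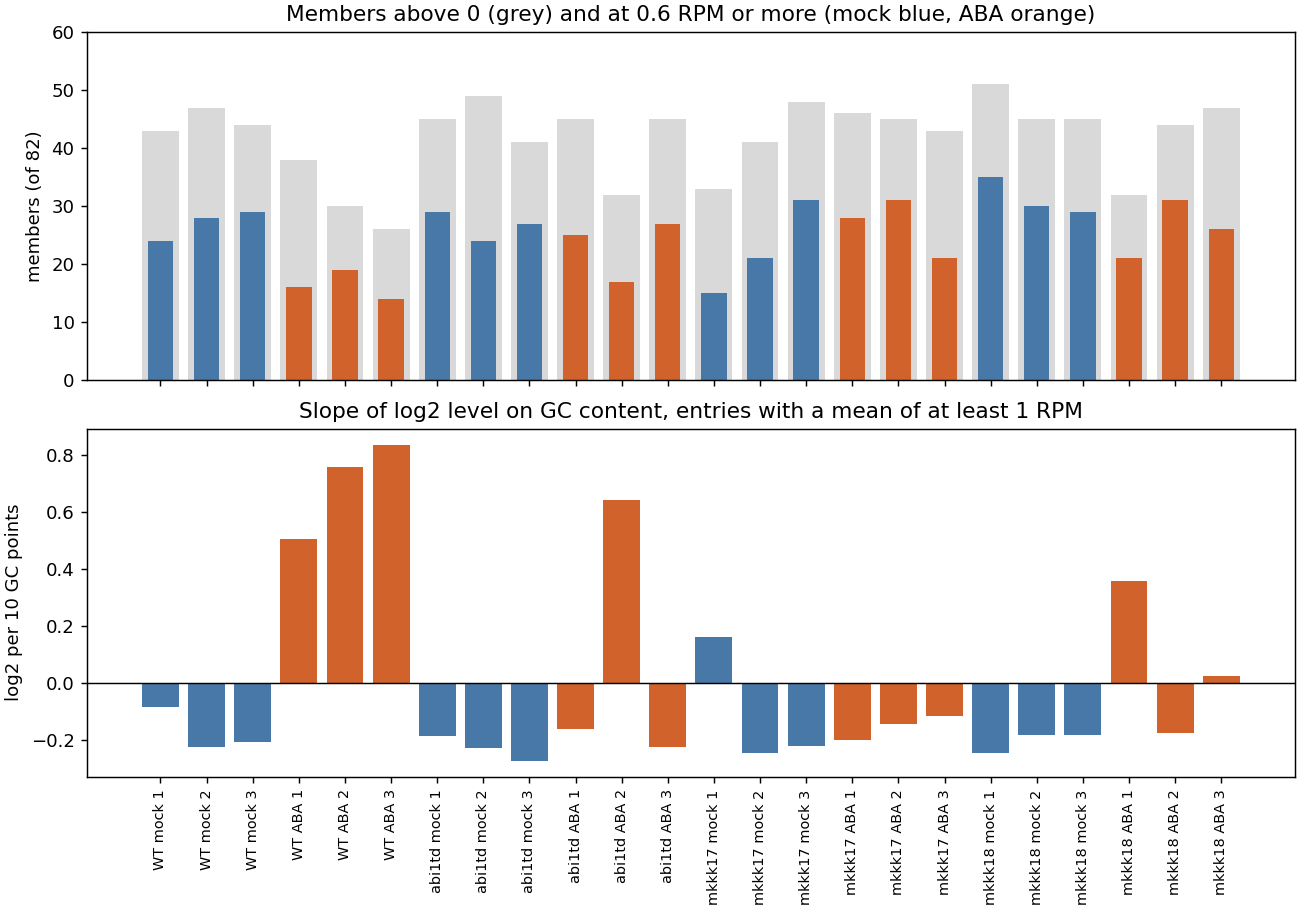
Members detected and GC slope in each of the 24 libraries. The upper bars give the number of the 82 members above 0 (grey) and at 0.6 RPM or more (colored), and the lower bars the slope of log2 level on GC content; the 3 WT Col-0 ABA libraries have 14 to 19 members at 0.6 RPM or more and slopes of 0.51 to 0.84.

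Members listed at 0 in every library were miR773b-3p, miR773b-5p, miR774b-3p, miR774b-5p, miR776, miR779.1, miR831-5p, miR832-3p, miR832-5p, miR836, miR849, miR851-3p, the shared sequence of miR854a to miR854e, miR855, miR856, miR861-5p, miR867, and miR868-3p. Another 5 were above 0 in 1 library each, at 0.1 RPM, namely miR778, miR782, miR826b, miR834, and miR866-5p. miR778 is known to target the histone methyltransferase gene SUVH6. miR826b belongs to a family known to target the glucosinolate gene AOP2.

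The remaining members under a mean of 1 RPM were above 0 in 2 to 23 libraries. Above 0 in 12 or more libraries were miR771, miR773a, miR774a, miR829-3p.2, miR830-3p, miR833a-5p, miR835-5p, miR837-3p, miR837-5p, miR841a-3p, miR841b-5p, miR844-5p, miR845a, miR848, miR850, miR851-5p, miR853, miR859, miR862-5p, miR863-3p, miR863-5p, and miR865-5p. Their highest values lay between 0.5 RPM, in miR853, miR859, miR863-5p, and miR865-5p, and 2.3 RPM, in miR773a and miR848. In fewer libraries were miR780.1, miR780.2, miR826a, miR831-3p, miR833a-3p, miR833b, miR835-3p, miR841b-3p, miR845b, miR862-3p, miR864-3p, miR864-5p, miR865-3p, miR868-5p, miR870-3p, and miR870-5p, none above 0.6 RPM in any library. Among these rare members are several with established targets. miR773a is annotated as targeting the DNA methyltransferase gene MET2, and miR774a and miR859 target F-box genes. miR780 targets the cation exchanger gene CHX18, and miR845 matches the primer binding sites of retrotransposons.

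In WT Col-0, 7 members were above 0 in all 3 mock libraries and at 0 in all 3 ABA libraries, which was the case for 14 of all 350 entries (4%), and none showed the reverse. They were miR829-3p.2, miR830-3p, miR835-5p, miR837-3p, miR859, miR863-3p, and miR865-5p, named after their values were seen. miR829-3p.2 was at 0.7, 1.3, and 0.5 RPM in the mock libraries, and miR863-3p at 0.2, 0.6, and 2.1 RPM. The other 5 reached at most 0.7 RPM in WT Col-0 mock. With 3 reads worth 0.457 RPM in WT Col-0 ABA replicate 2 and 0.541 RPM in replicate 3, many of these mock values lay under that floor. All 7 were under the minimum mean for testing. Without a filter on low values, 13 of 53 members were called lower in WT Col-0 (limma), beside 20.8% of all entries, and 0 higher, beside 13.8%. Among the 13 were miR829-3p.2, miR830-3p, miR837-3p, and miR863-3p, and 7 members that were also called with the filter. In the mutants only miR865-5p was above 0 in the 3 mock and not in the 3 ABA libraries, in mkkk18, or the reverse, in mkkk17. Of all 350 entries, 2 (0.571%) showed the first pattern in mkkk18 and 2 the reverse in mkkk17.

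For 23 pairs of strands from 22 hairpins, both the 5p and the 3p strand are listed. miR840-3p, miR844-3p, miR861-3p, and miR866-3p were each above their 5p partner in all 24 libraries. The 3p mean was 4.59 RPM against 1.58 RPM for miR840, 4.32 against 0.254 RPM for miR844, 1.67 RPM against 0 for miR861, and 1.84 against 0.00417 RPM for miR866. On the other side, miR833a-5p, miR841a-5p, and miR851-5p were above their 3p partner in 23 libraries. miR841a-5p had a mean of 2.92 RPM and miR841a-3p of 0.454 RPM. For miR837 the means were 0.183 RPM for the 5p and 0.292 RPM for the 3p strand, the 5p strand higher in 8 libraries and the 3p strand in 11. For miR829 the strands were close, with 1.69 RPM for miR829-5p, 1.53 RPM for miR829-3p.1, and 0.708 RPM for miR829-3p.2, and the 5p strand above miR829-3p.1 in 14 libraries and below it in 9.

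**Figure D2:**
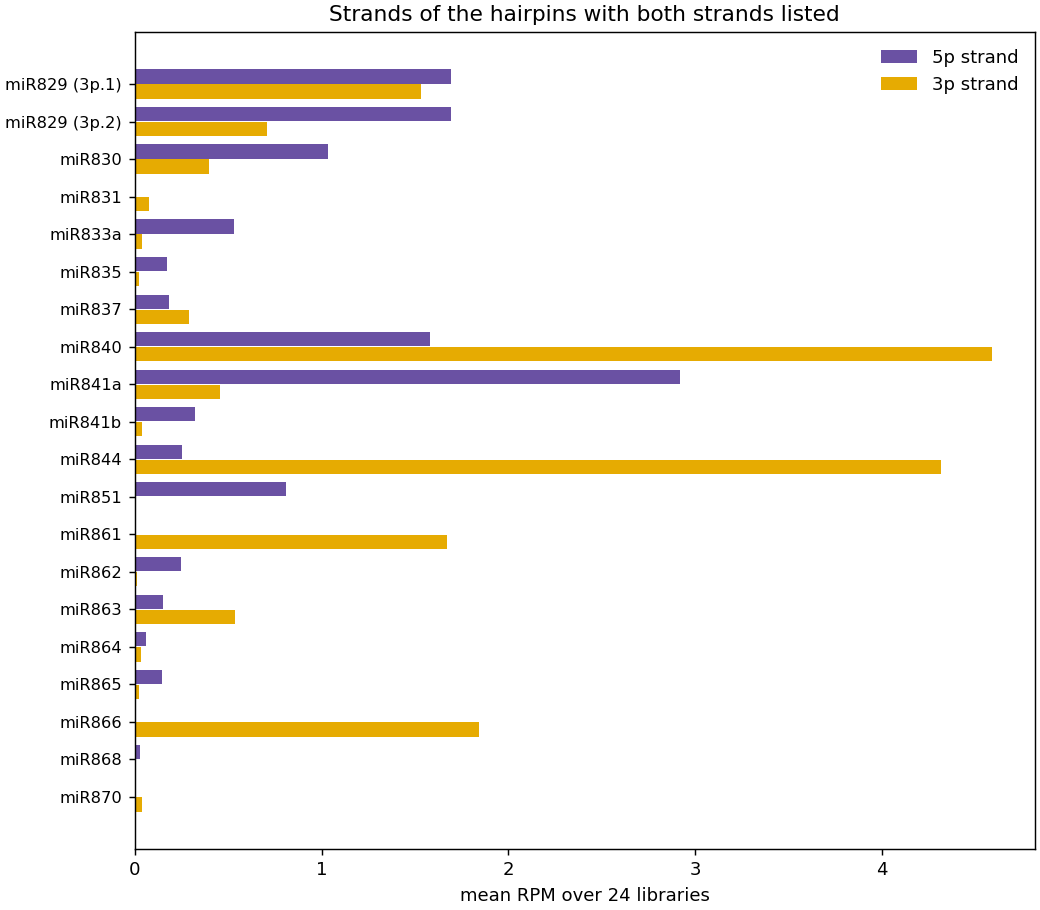
Mean RPM over the 24 libraries of the 5p strand (purple) and the 3p strand (yellow) of the hairpins with at least 1 strand above 0. The miR840, miR844, miR861, and miR866 hairpins have most reads on the 3p strand, and the miR841a hairpin on the 5p strand.

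The summed level of the members was 0.103% to 0.285% of the summed RPM of the 350 entries, with a median of 0.216%. miR858a and miR858b together made 29.0% of it, and the 10 most abundant members made 73.7%. The sum was 131 ± 37.6 RPM in WT Col-0 mock and 63.5 ± 17.8 RPM in WT Col-0 ABA (SD, n = 3), or 0.228 ± 0.0339% and 0.134 ± 0.00611% of the summed RPM. It was 100.4 ± 27.6 and 89.5 ± 37.2 RPM in mock and ABA libraries of abi1td, 65.6 ± 48.0 and 161 ± 23.5 RPM in mkkk17, and 124 ± 29.0 and 96.6 ± 20.6 RPM in mkkk18. In WT Col-0 and in mkkk17 the RPM sums of the groups did not overlap, lower with ABA in WT Col-0 and higher in mkkk17. As a share of the summed RPM the mkkk17 groups overlapped, at 0.162% to 0.285% in mock and 0.231% to 0.281% in ABA, and after rescaling their mean sums were 96.0 and 102 RPM, against 109.6 and 78.8 RPM in WT Col-0. The summed RPM of the tables also differ between libraries, and rescaling by the median of ratios moved ABA against mock by 0.51 log2 units upward in WT Col-0, 0.13 in abi1td, and 0.21 in mkkk18, and by 1.40 downward in mkkk17. Fold changes below are on the log2(scaled RPM + 0.5) scale, which understates the change of low members, while levels are RPM as deposited.

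ABA was first compared with mock in WT Col-0. Of the 82 members, 18 had a mean of at least 1 RPM over these mock and ABA libraries together and were tested. For miR779.2, miR860, miR838, miR861-3p, and miR829-3p.1 the ABA mean was under 1 RPM, so these members passed the minimum only through mock. All entries were filtered in the same way. Of the 18 members, 11 were called at an adjusted p-value under 0.05 by limma. Of these, 10 members fell and 1 rose. This is 55.6% lower and 5.56% higher, where over all 125 entries tested 33.6% were called lower and 26.4% higher, and 60% in either direction. Without WT Col-0 mock replicate 2, 6 of 17 members were called, all lower, beside 27.6% of all entries, and without mock replicate 3, 6 of 15, all lower, beside 25%. The median log2 fold change was -0.92 over the 18 members, -0.10 over all 125 entries, and 0.33 over the 74 conserved entries tested. All 3 ABA libraries lay below all 3 mock libraries in 11 of the 18 members, against 43.2% of all entries tested, and above them in none, against 8%.

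The deepest fall was that of miR779.2, for which no role is given here. It stood at 7.8, 17.5, and 18.4 RPM in WT Col-0 mock and at 0.4, 1.1, and 0.4 RPM in ABA. The log2 fold change was -3.31 ± 0.35 (SE, limma, adjusted p = 1.8e-06). In scaled RPM the mock mean was 15.7 times the ABA mean, and the groups were far apart. Of the ABA values, that of replicate 3 lay under 3 reads, which are worth 0.541 RPM there.

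miR775, a young miRNA known to target a galactosyltransferase gene, was, with miR779.2, a member whose fall was called under every alternative and without any single library. It stood at 12.2, 15, and 17.6 RPM in WT Col-0 mock and at 2.8, 5.5, and 2.3 RPM in ABA. The log2 fold change was -1.53 ± 0.33 (SE, limma, adjusted p = 0.00117), with all 3 ABA libraries below all 3 mock libraries. Among the transport and metabolism families (miR775, miR780, miR826, and miR856), it was the single member tested of 6.

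Both tested members of the signaling and cell cycle list (miR781, miR834, and miR844, 4 members) fell, beside 33.6% of all entries. miR781a/miR781b stood at 6.4, 10.6, and 8.9 RPM in WT Col-0 mock and at 1.5, 1.4, and 0.4 RPM in ABA, a log2 fold change of -2.13 ± 0.39 (SE, limma, adjusted p = 0.000315). miR844-3p, of a family annotated as targeting a protein kinase gene, stood at 4.6, 6.6, and 10 RPM in mock and at 1.2, 0.2, and 1.8 RPM in ABA. Its log2 fold change was -1.97 ± 0.43 (SE, limma, adjusted p = 0.00118). For both the groups did not overlap, both have a GC content of 28.6%, and neither was called with the GC correction described below.

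Of the chromatin and silencing list (miR773, miR778, miR823, miR838, miR845, miR854, and miR863, 11 members), 2 members were tested and both fell, beside 33.6% of all entries. miR823, which targets the chromomethylase gene CMT3, stood at 3.2, 6.3, and 7.4 RPM in WT Col-0 mock and at 1.9, 1.8, and 1.4 RPM in ABA, a log2 fold change of -0.97 ± 0.34 (SE, limma, adjusted p = 0.0206). miR838, from the DCL1 intron, stood at 1.2, 2.1, and 2.5 RPM in mock and at 0.1, 0.3, and 1.1 RPM in ABA, a log2 fold change of -1.10 ± 0.41 (SE, limma, adjusted p = 0.0304). The groups did not overlap for either, but the highest miR838 ABA value was close to its lowest mock value. The miR823 call was lost without WT Col-0 mock replicate 2 or 3 or ABA replicate 3 (adjusted p up to 0.111), and the miR838 call without mock replicate 2 or ABA replicate 1 or 2 (adjusted p up to 0.114). Both were also lost without a filter on low values and with the GC correction, where the signs turned, and that of miR838 also in the fit of all 24 libraries and with the replicate block.

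The other members that fell belong to families with no role given here. miR860 stood at 1.2, 3.4, and 3.6 RPM in WT Col-0 mock and at 0.3, 0, and 0 RPM in ABA, a log2 fold change of -2.06 ± 0.42 (SE, limma, adjusted p = 0.000851), and its size depends on the pseudocount, since 2 libraries are at 0. miR841a-5p stood at 3.6, 4.8, and 6.9 RPM in mock and at 0.9, 2, and 0.4 RPM in ABA, a log2 fold change of -1.48 ± 0.40 (SE, limma, adjusted p = 0.00573). Its partner with the same seed, miR841b-5p, was at 0.7, 0.4, and 0.7 RPM in mock and at 0, 0, and 0.2 RPM in ABA, under the minimum for testing. Without a filter on low values miR841b-5p was called lower. Smaller changes were found for miR861-3p and miR777. miR861-3p stood at 1, 3.8, and 3.4 RPM in mock and at 0.6, 0.9, and 0.4 RPM in ABA, a log2 fold change of -1.01 ± 0.40 (SE, limma, adjusted p = 0.0377). miR777, the third most abundant member, stood at 9.2, 17.3, and 13.5 RPM in mock and at 4, 5.8, and 4.5 RPM in ABA, a log2 fold change of -0.88 ± 0.28 (SE, limma, adjusted p = 0.0137). For all 4 of these tested members the groups did not overlap. The miR861-3p call was lost without WT Col-0 mock replicate 2 or 3 or ABA replicate 3 (adjusted p up to 0.220), and also with a pseudocount of 0.1, without a filter, or with the replicate block, and the miR777 call without mock replicate 2 (adjusted p = 0.0820).

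Of the transcription factor and hormone list (miR829, miR847, and miR858, 6 members), 4 members were tested, with a median log2 fold change of 0.61, and 1 rose. This was miR847, which targets the auxin repressor gene IAA28. It stood at 0.9, 1.4, and 1.7 RPM in WT Col-0 mock and at 1.2, 2.1, and 3.8 RPM in ABA, a log2 fold change of 0.95 ± 0.36 (SE, limma, adjusted p = 0.0304). In RPM as deposited its groups overlapped, and without the rescaling it was not called (0.57, adjusted p = 0.284). It was also not called without any one of the 3 mock libraries or without ABA replicate 3 (adjusted p up to 0.115), nor without a filter on low values or with the replicate block.

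miR858a and miR858b, which target MYB transcription factor genes of flavonoid synthesis, were not called. miR858a, which ranked 50th of all entries by mean RPM, stood at 12, 24.2, and 14.3 RPM in WT Col-0 mock and at 9.1, 21.2, and 20.7 RPM in ABA. Its log2 fold change was 0.48 ± 0.30 (SE, limma, adjusted p = 0.182). miR858b stood at 5.9, 14.9, and 10.7 RPM in mock and at 4.5, 17, and 21.1 RPM in ABA, a log2 fold change of 0.74 ± 0.38 (SE, limma, adjusted p = 0.105). For both the libraries of the groups overlapped. The same was true of miR840-3p, whose family targets a pentatricopeptide repeat gene and the organelle protein gene WHIRLY3. It stood at 3.7, 4.3, and 5.1 RPM in mock and at 5.3, 6.1, and 4.1 RPM in ABA, a log2 fold change of 0.68 ± 0.32 (SE, limma, adjusted p = 0.0755).

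**Figure D3:**
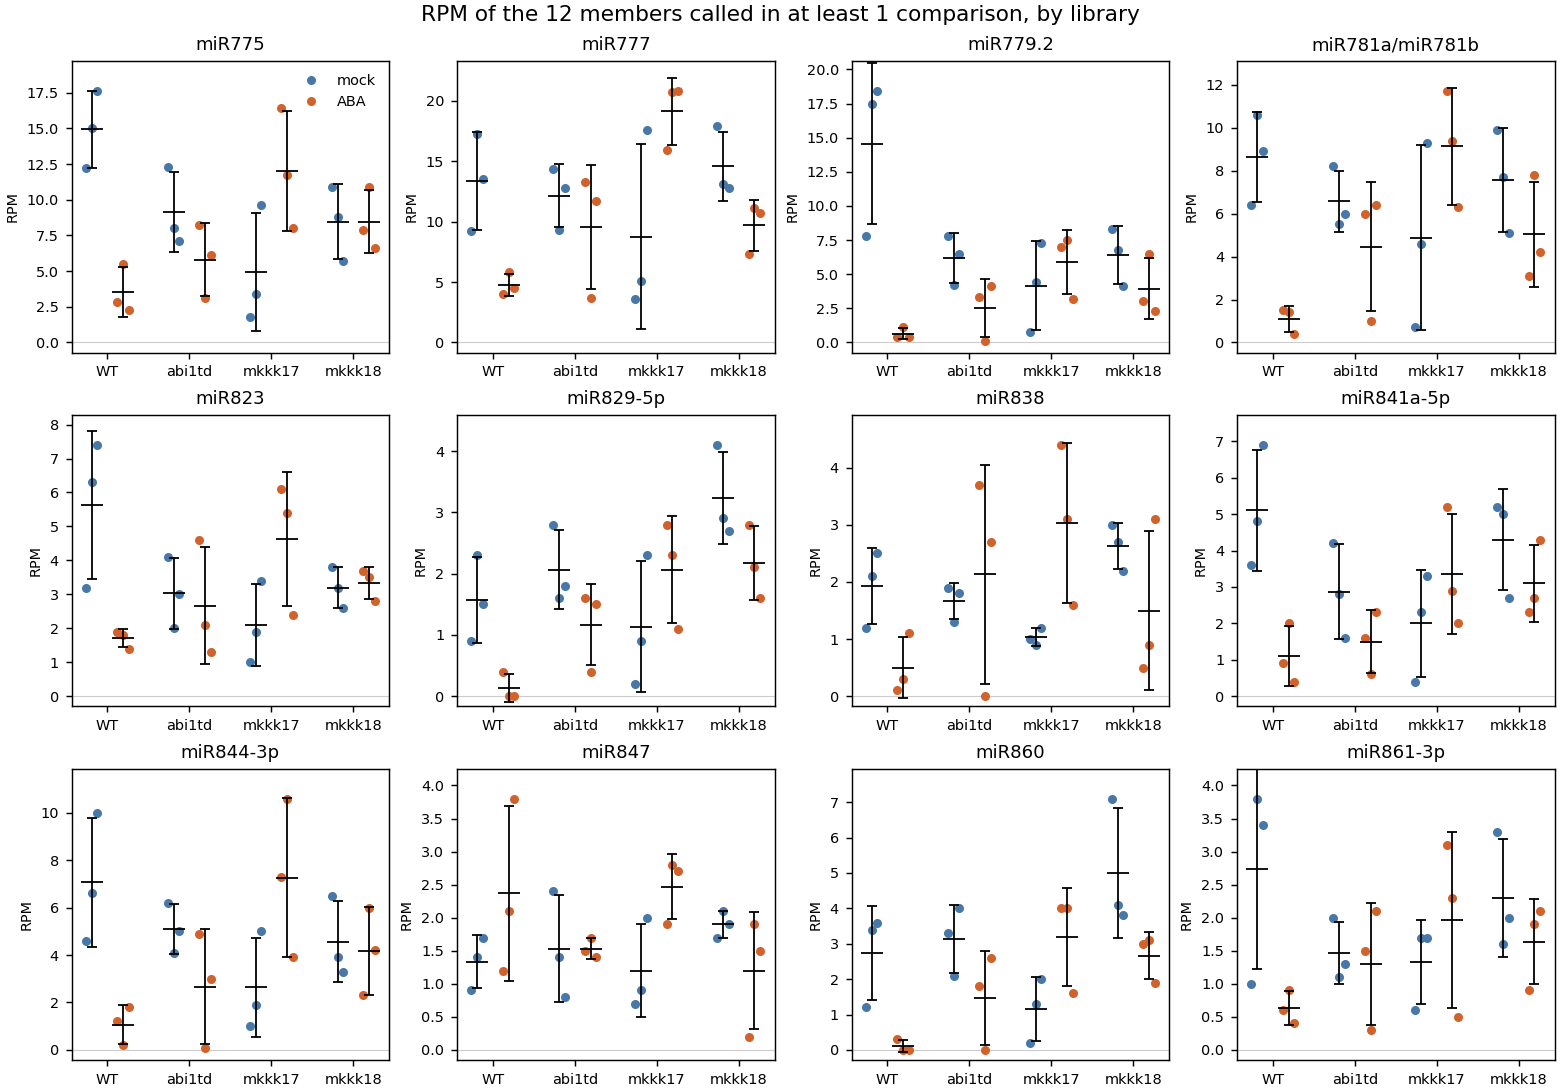
RPM as deposited of the 12 members called in at least 1 comparison, in each of the 24 libraries, with the mean and SD of each group of 3. In WT Col-0 the ABA libraries (orange) lie below the mock libraries (blue) in every panel except miR847, while in the mutants the groups mostly overlap.

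Sequence composition moved with this response. Across the 18 members tested in WT Col-0, GC content and log2 fold change had a Pearson correlation of 0.59, and across all 125 entries of 0.64, as a description of sequences read from the same 6 libraries. When the straight line on GC content was removed from each library, 5 of the 18 members were called, 2 lower and 3 higher, beside 20.8% lower and 22.4% higher over all entries. miR775 (-1.61 ± 0.31, SE, limma, adjusted p = 0.00144) and miR779.2 (-1.89 ± 0.32, adjusted p = 0.000631) were still lower. miR847 (1.51 ± 0.34, adjusted p = 0.00359) was higher as before, and miR840-3p (1.67 ± 0.27, adjusted p = 0.000521) and miR858a (1.04 ± 0.29, adjusted p = 0.0123) were called higher as well. The other 8 members that had fallen were no longer called. miR841a-5p was at -0.92 (adjusted p = 0.0676, limma), miR861-3p at -0.46 (adjusted p = 0.317), and miR777 at -0.15. In miR781a/miR781b, miR860, and miR844-3p, the members of 28.6% GC, the log2 fold change shrank to -0.28, -0.21, and -0.12, and in miR823 and miR838 it changed sign, to 0.021 and 0.32. The libraries that carry the steep slope in WT Col-0 are all 3 ABA libraries, so the part of composition in these 8 falls cannot be told apart from ABA.

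**Figure D4:**
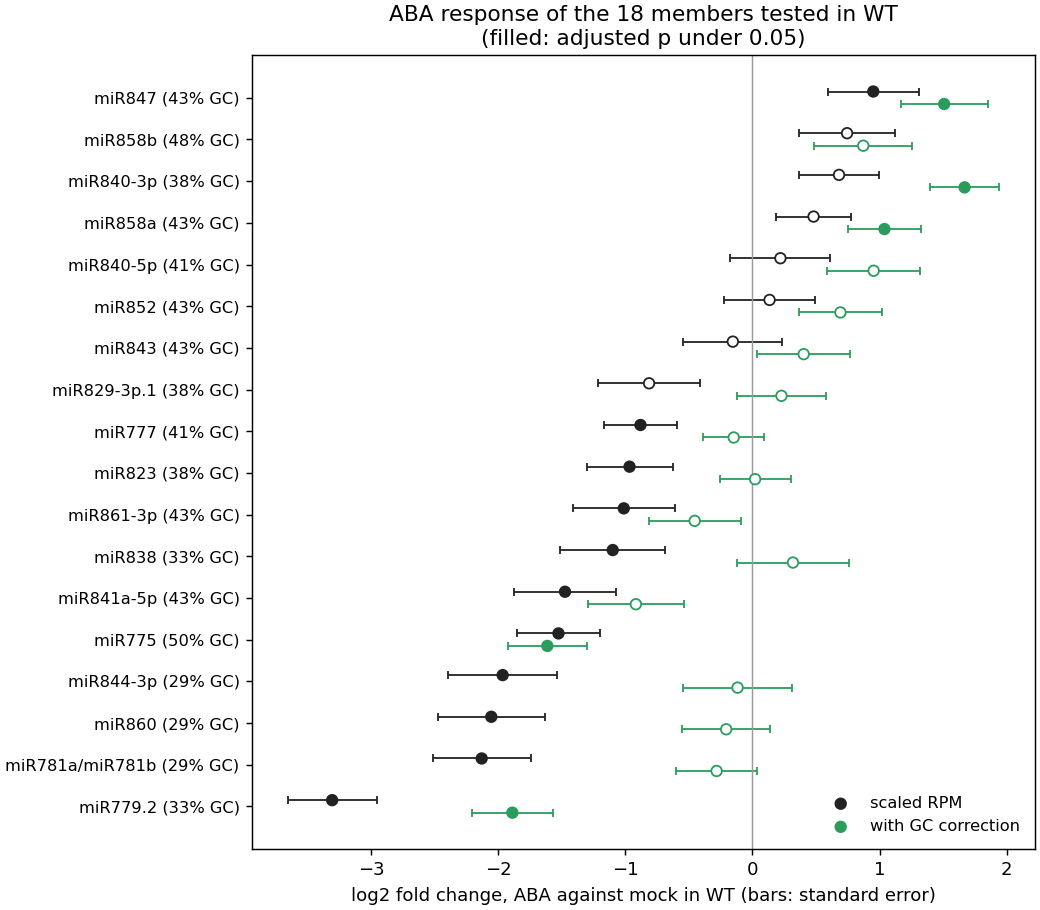
Log2 fold change with standard error, ABA against mock in WT Col-0, of the 18 members tested, from scaled RPM (black) and after the GC correction (green), with GC content beside each name. Filled points had an adjusted p-value under 0.05; miR775 and miR779.2 are filled and below 0 in both, and miR847 is filled and above 0 in both.

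In the mutants ABA was compared with mock in the same way, and no member was called. In abi1td, 0 of 22 members tested were called, beside 1.55% of all entries tested; limma gave 3 members an unadjusted p-value under 0.05. In mkkk17, 0 of 21 were called, beside 3.1%, with 1 under 0.05 unadjusted, and in mkkk18, 0 of 21, beside 3.01%, with 0 under 0.05 unadjusted. The members had a median log2 fold change of -0.30 (abi1td), 0.034 (mkkk17), and -0.22 (mkkk18), and that of all entries tested was -0.08, 0.02, and -0.03. The mutant ABA response of the members was therefore not distinguishable from the spread of the libraries. For mkkk17 this rests on the rescaling, because with RPM as deposited 7 of 21 members were called higher, beside 48.8% of all entries, and 1, beside 11.4% of all entries, when mkkk17 mock replicate 1, which had the lowest summed RPM, was also left out. All 3 mkkk17 ABA libraries lay above all 3 mock libraries in 8 of the 21 members in RPM as deposited, against 57.4% of all entries tested.

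The library abi1td ABA replicate 2 decided most of what was seen in abi1td. miR779.2 stood at 7.8, 4.2, and 6.5 RPM in abi1td mock and at 3.3, 0.1, and 4.1 RPM in ABA, a log2 fold change of -1.55 ± 0.67 (SE, limma, adjusted p = 0.324). miR860 was at 1.8, 0, and 2.6 RPM and miR844-3p at 4.9, 0.1, and 3 RPM in the abi1td ABA libraries, with the low value in replicate 2 each time. Without this library 2 members were called in abi1td, where 7.75% of all entries were. miR866-3p, with no role given here, rose by a log2 fold change of 1.47 (limma, adjusted p = 0.000216), and miR840-5p fell by 1.03 on the log2 scale (adjusted p = 0.0217). miR866-3p stood at 1.5, 0.8, and 1.1 RPM in abi1td mock and at 4.3, 1.8, and 4.3 RPM in ABA, so that the groups did not overlap even with this library, and miR840-5p at 2.8, 1.9, and 1.5 RPM and at 0.4, 1.4, and 1.3 RPM.

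The ABA response was then compared between each mutant and WT Col-0 in a fit of all 24 libraries, in which 21 members were tested. Against mkkk17, 5 members differed, all with a response above that of WT Col-0, which is 23.8% beside 20.2% of all entries in this direction. Against mkkk18, 2 differed, both in the same direction, 9.52% beside 10.1%. Against abi1td, 0 differed, beside 1.55%, with 1 under an unadjusted p-value of 0.05 in limma. Without WT Col-0 ABA replicate 1, 7 of 21 members differed for mkkk18, 6 above WT Col-0, beside 16.3% of all entries, and 1 below, beside 7.75%. These comparisons share the WT Col-0 libraries and are not independent of each other.

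miR779.2 and miR775 differed from WT Col-0 in both mkkk17 and mkkk18. miR779.2 stood at 0.8, 4.4, and 7.3 RPM in mkkk17 mock and at 7, 7.5, and 3.2 RPM in mkkk17 ABA, with overlapping groups. In mkkk18 it stood at 8.3, 6.8, and 4.1 RPM in mock and at 3, 6.5, and 2.3 RPM in ABA. Its log2 fold change with ABA was -0.46 ± 0.44 in mkkk17 (SE, limma, adjusted p = 0.738) and -0.51 ± 0.36 in mkkk18 (adjusted p = 0.521), against -3.31 in WT Col-0. The difference in response was 2.80 ± 0.75 for mkkk17 (SE, limma, adjusted p = 0.0101) and 2.76 ± 0.75 for mkkk18 (adjusted p = 0.0185). In mock libraries its mean in WT Col-0 was 14.6 ± 5.88 RPM (SD, n = 3), but the lowest WT Col-0 value, 7.8 RPM, lay under the 8.3 RPM of mkkk18 mock replicate 1, and the mock comparisons did not call it.

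miR775 likewise stood at 1.8, 3.4, and 9.6 RPM in mkkk17 mock and at 16.4, 11.7, and 8 RPM in mkkk17 ABA, and at 10.9, 8.8, and 5.7 RPM in mkkk18 mock and 7.9, 10.9, and 6.6 RPM in mkkk18 ABA. In abi1td it stood at 12.3, 8, and 7.1 RPM in mock and at 8.2, 3.1, and 6.1 RPM in ABA. The log2 fold change was -0.55 ± 0.28 in abi1td (SE, limma, adjusted p = 0.324), 0.16 ± 0.37 in mkkk17 (adjusted p = 0.912), and 0.21 ± 0.30 in mkkk18 (adjusted p = 0.790). The response differed from that of WT Col-0 by 1.61 ± 0.46 in mkkk17 (SE, limma, adjusted p = 0.0126) and by 1.66 ± 0.46 in mkkk18 (adjusted p = 0.0185). Mock and ABA levels both entered these differences. Against WT Col-0 mock, miR775 was at -0.87 ± 0.32 in mkkk17 (SE, limma, adjusted p = 0.137) and -0.94 ± 0.32 in mkkk18 (adjusted p = 0.151). Against WT Col-0 ABA it was at 0.74 ± 0.32 (adjusted p = 0.0675) and 0.73 ± 0.32 (adjusted p = 0.0964), and none of these was called. With the GC correction the differences in response of both miR775 and miR779.2 were still called. Those of miR775 became 1.80 in mkkk17 and 1.75 in mkkk18, and those of miR779.2 shrank to 1.46 (limma, adjusted p = 0.0406) and 1.85 (adjusted p = 0.0161). With that correction miR840-3p and miR847 were called as well, with a response below that of WT Col-0 in both mutants, so that 2 members were above and 2 below in each. The share of all entries called with that correction is not given for these differences. The mkkk17 differences of miR775 and miR779.2 were called without any single library. The mkkk18 differences of both were lost without WT Col-0 mock replicate 3, WT Col-0 ABA replicate 3, mkkk18 mock replicate 3, or mkkk18 ABA replicate 2, at adjusted p-values up to 0.0699, and in RPM as deposited (0.0950 for miR775 and 0.0520 for miR779.2). That of miR779.2 was also lost without a filter on low values (adjusted p = 0.0594, limma).

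The other 3 members that differed in mkkk17 were the AT-rich miR781a/miR781b, miR844-3p, and miR860. miR781a/miR781b stood at 0.7, 4.6, and 9.3 RPM in mkkk17 mock and at 11.7, 9.4, and 6.3 RPM in ABA, miR844-3p at 1, 1.9, and 5 RPM and at 7.3, 10.6, and 3.9 RPM, and miR860 at 0.2, 1.3, and 2 RPM and at 4, 4, and 1.6 RPM. The lowest mock value was that of replicate 1 for each. The differences in response were 2.14 ± 0.69 for miR781a/miR781b (SE, limma, adjusted p = 0.0184), 2.15 ± 0.74 for miR844-3p (adjusted p = 0.0266), and 2.35 ± 0.71 for miR860 (adjusted p = 0.0142). None of the 3 kept its call without mkkk17 mock replicate 1 (adjusted p from 0.0528 to 0.0930) or with the GC correction. That of miR781a/miR781b was also lost without WT Col-0 ABA replicate 3 or mkkk17 ABA replicate 1, and that of miR844-3p without WT Col-0 mock replicate 3, WT Col-0 ABA replicate 2, or mkkk17 ABA replicate 1 or 2, with a pseudocount of 0.1, or without a filter on low values.

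**Figure D5:**
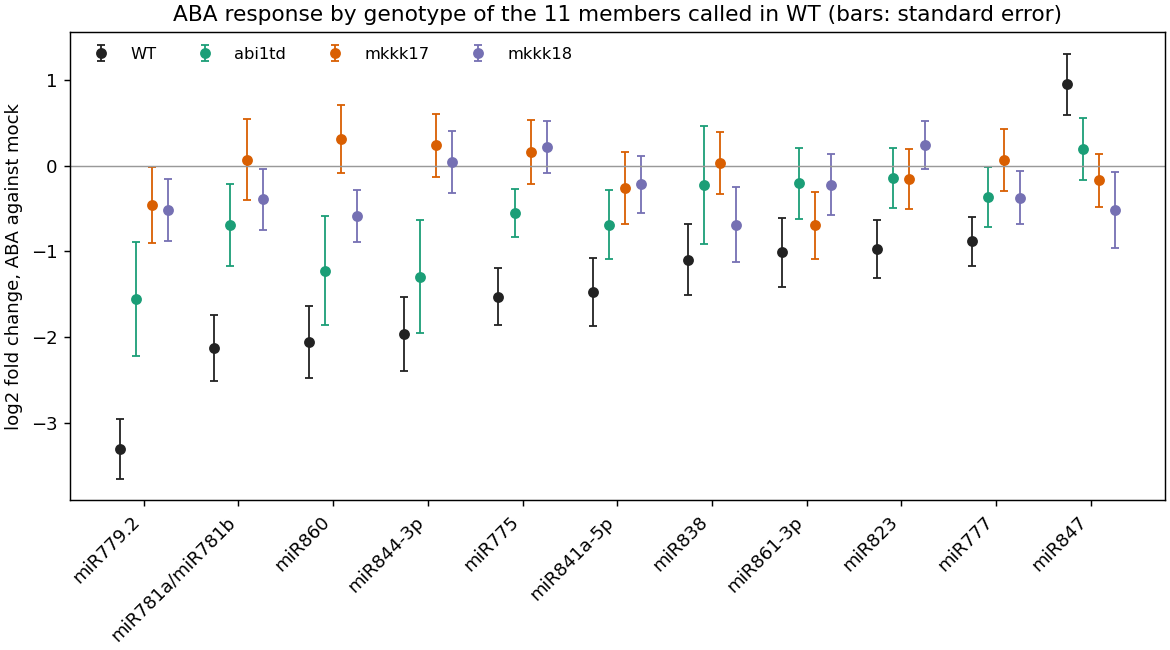
Log2 fold change with standard error, ABA against mock, in each genotype for the 11 members called in WT Col-0. WT Col-0 (black) lies lowest for miR779.2, at -3.31, and for miR775, at -1.53, where the mkkk17 and mkkk18 points lie between -0.51 and 0.21.

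In mock libraries no member differed between a mutant and WT Col-0. Of 21 members tested, 0 were called for abi1td (beside 0.775% of all entries), 0 for mkkk17 (0.775%), and 0 for mkkk18 (0%), with 1, 3, and 3 under an unadjusted p-value of 0.05 in limma. Among ABA libraries, 1 member was higher in abi1td than in WT Col-0, 6 in mkkk17, and 4 in mkkk18, where 1 was lower. These are 4.76%, 28.6%, and 19.0% of the members higher, beside 10.9%, 24%, and 17.8% of all entries, and for mkkk18 4.76% lower beside 5.43%. Those 3 comparisons share the WT Col-0 ABA libraries. Without WT Col-0 ABA replicate 1, 4 members were higher in abi1td, beside 14.7% of all entries, and 1 lower, beside 4.65%.

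miR829-5p, whose family has targets among AP2-type transcription factor genes, was the member higher in ABA libraries of every mutant. It stood at 0.9, 2.3, and 1.5 RPM in WT Col-0 mock and at 0.4, 0, and 0 RPM in WT Col-0 ABA, a pair of groups that fell under the minimum mean for testing. Without a filter on low values, and in the fit of all 24 libraries, it was called lower with ABA in WT Col-0. In ABA libraries of the mutants it stood at 1.6, 0.4, and 1.5 RPM in abi1td, 2.8, 2.3, and 1.1 RPM in mkkk17, and 2.8, 2.1, and 1.6 RPM in mkkk18. The mkkk17 and mkkk18 libraries lay above every WT Col-0 ABA library, and the lowest abi1td library equaled the highest of WT Col-0. The log2 difference from WT Col-0 ABA was 1.32 ± 0.37 in abi1td (SE, limma, adjusted p = 0.0159), 1.40 ± 0.37 in mkkk17 (adjusted p = 0.00504), and 1.84 ± 0.37 in mkkk18 (adjusted p = 0.0016). In this fit miR829-5p passed the minimum mean only through the other groups. With WT Col-0 ABA values at or near 0, the size of these differences depends on the pseudocount. Among the alternatives they reached 2.64, 2.76, and 3.32. The abi1td call was lost in RPM as deposited and without WT Col-0 ABA replicate 2 or 3 or abi1td ABA replicate 1 or 3 (adjusted p up to 0.123). None of the 3 was called with the GC correction, which gave 0.10, -0.27, and 0.58.

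miR860 and miR779.2 were higher in ABA libraries of both kinase mutants than in those of WT Col-0. For miR860 the log2 difference was 1.94 ± 0.50 in mkkk17 (SE, limma, adjusted p = 0.00416) and 2.16 ± 0.50 in mkkk18 (adjusted p = 0.00493), where it stood at 3, 3.1, and 1.9 RPM. For miR779.2 it was 1.70 ± 0.53 in mkkk17 (adjusted p = 0.0148) and 1.56 ± 0.53 in mkkk18 (adjusted p = 0.0341). miR781a/miR781b was higher by 1.77 ± 0.49 in mkkk17 (SE, limma, adjusted p = 0.00692) and by 1.36 ± 0.49 in mkkk18 (adjusted p = 0.0431), where it stood at 3.1, 7.8, and 4.2 RPM. In mkkk17 alone, miR844-3p (1.56 ± 0.53, SE, limma, adjusted p = 0.0201) and miR777 (0.96 ± 0.30, adjusted p = 0.0147) were called. miR777 stood at 15.9, 20.7, and 20.8 RPM in mkkk17 ABA and its 3 libraries lay above every WT Col-0 ABA library. In WT Col-0 ABA the means of miR860 and miR779.2 were 0.1 and 0.633 RPM, so both passed the minimum mean only through the other groups. With WT Col-0 ABA values at or near 0, the size of the miR860 differences depends on the pseudocount. Among the alternatives they ranged from 0.27 to 3.46 in mkkk17 and from 0.90 to 3.73 in mkkk18. The miR860 calls held without any single library. Those of the other 4 members did not: without WT Col-0 ABA replicate 3, miR777, miR779.2, and miR781a/miR781b lost their mkkk17 calls and miR779.2 and miR781a/miR781b their mkkk18 calls, at adjusted p-values up to 0.269. Without WT Col-0 ABA replicate 2, miR844-3p in mkkk17 and miR781a/miR781b in mkkk18 lost theirs, and without replicate 1, miR779.2 in mkkk18. Of the mutant libraries, mkkk17 ABA replicate 1 decided the calls of miR779.2 and miR844-3p, replicate 2 that of miR844-3p, and replicate 3 that of miR777, while mkkk18 ABA replicate 2 decided those of miR779.2 and miR781a/miR781b and replicate 3 that of miR781a/miR781b. Without a filter on low values, miR844-3p in mkkk17 and miR779.2 and miR781a/miR781b in mkkk18 were not called, and the last was also lost with a pseudocount of 1, with a minimum mean of 5 RPM, or with the replicate block. After the GC correction none of these calls was kept. The members called were then miR775, higher, with miR840-3p and miR847, lower, in mkkk17 ABA, miR840-3p, miR847, and miR858a, all lower, in mkkk18 ABA, and miR840-3p and miR843, both lower, in abi1td ABA. The shares of all entries called are not given for these comparisons.

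miR847 was lower in mkkk18 ABA than in WT Col-0 ABA, by a log2 difference of -1.20 ± 0.37 (SE, limma, adjusted p = 0.0253). It stood at 0.2, 1.9, and 1.5 RPM in mkkk18 ABA, with the lowest value in replicate 1, and the call was lost without that library (adjusted p = 0.141) or without WT Col-0 ABA replicate 3 (adjusted p = 0.129), and also in RPM as deposited or without a filter. With the GC correction it was called lower in mkkk18 ABA as well.

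Without abi1td ABA replicate 2, the abi1td results changed most of all comparisons. The response of 4 members then differed between abi1td and WT Col-0, all above WT Col-0, where 16.9% of all entries were, namely miR779.2 (2.57, limma, adjusted p = 0.00328), miR781a/miR781b (1.95, adjusted p = 0.0276), miR838 (1.79, adjusted p = 0.0277), and miR860 (1.59, adjusted p = 0.0494). Among ABA libraries 8 members were then higher in abi1td than in WT Col-0, where 22.3% of all entries were. The count of 0 members for the abi1td response thus rests on this library.

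Another 6 members had a mean of at least 1 RPM and were called in no comparison as reported above. With the GC correction miR866-3p was called higher with ABA in abi1td, beside 3.1% of all entries, and miR843 lower in abi1td ABA than in WT Col-0 ABA. With RPM as deposited, ABA against mock called miR829-3p.1 lower in WT Col-0, beside 38.4% of all entries. It called miR843 and miR866-3p higher in mkkk17, beside 48.8%. The fit of all 24 libraries called miR830-5p lower with ABA in WT Col-0, beside 32.6%. miR866-3p had group means from 0.633 RPM in WT Col-0 mock to 4.23 RPM in mkkk17 ABA. miR843 ranged from 0.833 RPM in abi1td ABA and mkkk17 mock to 2.7 RPM in WT Col-0 mock, and miR840-5p from 0.867 RPM in mkkk18 ABA to 3.17 RPM in mkkk17 ABA. miR829-3p.1 was highest in mkkk18 mock, at 2.77 RPM, and lowest in WT Col-0 ABA, at 0.5 RPM, where its 3 ABA libraries lay below the 3 mock libraries (limma, adjusted p = 0.0936). miR852 stayed between 0.733 and 1.53 RPM in all groups, and miR830-5p between 0.233 RPM in WT Col-0 ABA and 1.4 RPM in mkkk18 mock. Neither miR830-5p nor miR866-3p passed the minimum mean for testing in the fit of the WT Col-0 libraries alone.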

How the data were processed

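Small RNA libraries were clipped of adapters and filtered for length and base quality by the authors, who catalogued reads with mirPRo against miRBase names. The authors deposited 1 table per library in RPM, rounded to 1 decimal. The total behind the RPM, the genome build, and the treatment of reads that match several entries are not given in the sources used here. Low values were searched for the value of 1 read, which was resolved in 10 of the 24 libraries, so whole reads could not be recovered in every genotype and no count test was run.

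Members were taken by family number, and the members, role lists, and tests were chosen with earlier results of these data known. Tables were joined by sequence. Median-of-ratios factors, from entries above 0 in every library of a fit, were used to rescale RPM. Entries averaging 1 RPM or more entered limma 3.58.1 (R 4.3.3) as log2(scaled RPM + 0.5), with a variance trend. P-values were adjusted over all entries tested (Benjamini-Hochberg), with a threshold of 0.05. ABA was compared with mock in 6 libraries per genotype. Differences between genotypes came from 1 fit of 24 libraries. The GC correction removed from each library a straight line on GC content. Alternatives were RPM as deposited, trimmed-mean scaling, pseudocounts of 0.1 and 1, no filter, a minimum mean of 5 RPM, the replicate block, the GC correction with and without it, robust moderation, and leaving out each library. The detection minimum of 0.6 RPM and the unscaled mkkk17 comparison without mock replicate 1 were added after seeing the data. The fit was tested on simulated data. Values in every library are given for members called in a comparison and the 10 most abundant, means or ranges for others of at least 1 RPM, and counts for the rest. Sequences were matched to TAIR10.1 (RefSeq), whose build may not be that of the authors. Tables and figures were made with Python 3.11.15, pandas 2.3.3, and matplotlib 3.10.9.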

Additional observations from a re-analysis of the deposited data

Results flagged for a closer look

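In 7 cases the ABA response of a member differed between a kinase mutant and WT Col-0 by the test of the difference itself (limma, adjusted p-value under 0.05). In mkkk17 the differences on the log2 scale were 1.61 for miR775, 2.80 for miR779.2, 2.14 for miR781a/miR781b, 2.15 for miR844-3p, and 2.35 for miR860, and in mkkk18 they were 1.66 for miR775 and 2.76 for miR779.2. In each the WT Col-0 response was the lower one. With the GC correction the differences of miR775 (1.80 in mkkk17 and 1.75 in mkkk18) and of miR779.2 (1.46 and 1.85) were still called and the 3 others were not, and miR840-3p and miR847 were called with a response below that of WT Col-0 in both kinase mutants.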

How the results depend on the processing

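Trimmed-mean scaling, pseudocounts, robust moderation, and 1 fit of 24 libraries for the changes within genotypes left each count of called members within 1.5 times of that reported. The GC correction moved the number called for ABA in WT Col-0 from 11 to 5, and with the replicate block to 6. The 5 were 2 lower and 3 higher, beside 20.8% lower and 22.4% higher over all entries. With either form 1 was higher in abi1td, beside 3.1% without the block. For the differences of mkkk17 and of mkkk18 from WT Col-0 the counts became 4, 2 higher and 2 lower in each, where 5 and 2 had been higher and 0 lower. For these differences and the comparisons with WT Col-0 ABA the shares of all entries are not given. Whether the turn in direction is particular to the members was not tested. Against WT Col-0 ABA the direction turned: 2 were lower in abi1td ABA (before, 1 higher), 3 were lower in mkkk18 ABA (before, 4 higher and 1 lower), and in mkkk17 ABA 1 was higher and 2 lower, 3 in all, or 2 lower with the block (before, 6 higher). Both forms gave miR823 a log2 fold change of 0.021 and miR838 of 0.32 in WT Col-0, and gave miR829-5p -0.27 and miR844-3p -0.11 in mkkk17 ABA against WT Col-0 ABA. RPM as deposited gave 7 members higher for ABA in mkkk17, beside 48.8% of all entries, or 1 without mkkk17 mock replicate 1, beside 11.4%. For the difference of mkkk17 from WT Col-0 it gave 16, all above, beside 60.5%. For that of mkkk18 it gave 0, beside 0%. Against WT Col-0 mock 6 were lower in mkkk17 mock, beside 31.8%. Against WT Col-0 ABA 14 were higher in mkkk17 ABA, beside 42.6%, and 0 in abi1td ABA, beside 3.88%. RPM as deposited also turned the sign for miR858a in WT Col-0 (-0.016) and for miR779.2 in mkkk17 (0.72). A minimum mean of 5 RPM left 5 members to test in WT Col-0, of which 3 were called lower, beside 33.3% of all entries. It gave 3 for the mkkk17 difference, all above, beside 21.8%. Against WT Col-0 ABA it gave 3 higher in mkkk17 ABA, beside 25.6%, and 1 in mkkk18 ABA, beside 15.4%. In abi1td ABA it gave 0, beside 12.8% higher. Without a filter, 1 member was called above for the mkkk18 difference, beside 1.81%. The cause of these changes was not tested.

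Leaving out each library in turn gave from 6 to 13 members called for ABA in WT Col-0, from 0 to 2 in abi1td, from 0 to 4 for the abi1td difference, from 2 to 6 for the mkkk17 difference, and from 0 to 7 for the mkkk18 difference. It gave from 0 to 8 for abi1td ABA, from 4 to 6 for mkkk17 ABA, and from 2 to 5 for mkkk18 ABA against WT Col-0 ABA. The calls over all entries moved as well. Without abi1td ABA replicate 2 they rose from 1.55% to 7.75% in abi1td and from 1.55% to 20.8% for the abi1td difference. For abi1td ABA they rose to 36.2%, from 10.9% higher and 5.43% lower. Shares for the other left-out libraries are not all given, so these ranges are not set beside the whole table. The log2 fold change of miR775 in mkkk17 lay between -0.061 and 0.37. A fit of 2 against 3 libraries takes the spread from all entries and groups.

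Replicate numbers did not pair the samples: correlations between deviations of a mock and an ABA library of equal number averaged -0.18 (WT Col-0), -0.067 (abi1td), -0.16 (mkkk17), and 0.16 (mkkk18). With the replicate block 8 members were called in WT Col-0, all lower, beside 30.4% of all entries, and 0 in each mutant. For the mkkk17 difference 5 were called, all above WT Col-0, beside 19.4%. For that of mkkk18, 2 were above, beside 10.1%, and 1 below, beside 4.65%. Against WT Col-0 ABA 6 were higher in mkkk17 ABA, beside 24%, and 1 in abi1td ABA, beside 10.9%. In mkkk18 ABA 3 were higher, beside 17.1%, and 1 lower, beside 5.43%.

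Detection in all 6 libraries of a genotype was met by 21 members (WT Col-0), 26 (abi1td), 29 (mkkk17), and 29 (mkkk18). In at least 2 libraries, 49, 49, 49, and 53 were detected. Detection in all 6 was met by 25.6%, 31.7%, 35.4%, and 35.4% of the members, beside 39.4%, 41.4%, 43.4%, and 44.3% of all 350 entries. At 1 RPM or more in at least 2 libraries were 24, 26, 24, and 26, and at 0.6 RPM or more 29, 29, 30, and 34. The counts at 1 RPM are 29.3% to 31.7% of the members, beside 39.4% to 40.6% of all entries. By these stricter rules the member share lay below that of all entries in every genotype. The share of all entries at 0.6 RPM is not given. The summed RPM in mkkk17 ABA was 102 RPM after rescaling (mock, 96.0 RPM) and 133 RPM without miR858a. Among 637 alternative values for ABA fold changes of named members that the text does not print, 57 had the opposite sign. Depth limits what can be said of members under about 0.5 RPM.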
